A study of Danio rerio with 4 samples.

Results

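Uninjured ventricles of dusp6 mutant zebrafish were compared with uninjured wild-type (WT) ventricles, a contrast of 1 RNA sequencing library with 1 library. A gene was kept where either of these libraries held 50 or more counts, which left 15132 of the 31388 genes in the deposited tables. The dusp6 uninjured library came from adult fish that carry the dusp6 allele pt30a in homozygous form, and the WT uninjured library from adult fish of the AB* strain. Both labels give an age between 6 months and 1 year and a heart ventricle that was flash frozen after removal. The series holds 4 libraries in all, and the other pair came from both genotypes at 20 days post amputation (dpa), the operation that removes a piece of the ventricle. How many ventricles entered a library, what the allele does to the transcript, and whether mutants and WT fish were siblings are points on which the sources used here are silent. Any difference in genetic background between the mutant and the AB* fish therefore cannot be told apart from the genotype.

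Dusp6 is a cytoplasmic phosphatase that switches off the kinase ERK by removing its activating phosphates. ERK is the last kinase of a cascade started by FGF and other receptor tyrosine kinases, and dusp6 is one of the genes that ERK signalling turns on, along with Sprouty, Spred and Etv genes that act as feedback or as transcriptional readouts. In adult zebrafish the ventricle regrows after resection through division of existing cardiomyocytes, and growth factors that signal through ERK take part in this growth.

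The 4 libraries held between 55197408 and 63222206 counts, and mitochondrially encoded genes took between 17.7% and 18.7% of them. Levels are counts scaled to the library's total (CPM, the count that each 1000000 counts would hold), and differences are dusp6 minus WT on the log2(CPM + 1) scale, which understates the change of weakly expressed genes. A gene is called 2-fold higher or lower where this difference reached 1 or -1. With 1 library per group no p-value was computed for the uninjured pair, and the intervals given with folds are exact 95% counting intervals on the ratio of CPM without a pseudocount. These intervals are meant for counting error and do not cover the spread between fish. No molecular identifiers were used here to remove PCR copies, which are not independent, so the intervals can be too narrow for counting error as well. Cardiac muscle genes were abundant, with the cardiac myosin light chain gene myl7 at 19099.6 CPM in dusp6 uninjured and 18804 CPM in WT uninjured. The ventricle marker vmhc was at 728 CPM in dusp6 uninjured and 377 CPM in WT uninjured. At 20 dpa it was at 232 CPM in dusp6 and 671 CPM in WT. The hepatocyte gene fabp10a was at 0.165 CPM in dusp6 uninjured and 0.680 CPM in WT uninjured, and the fast skeletal muscle gene mylpfa at 0.313 and 0.459 CPM in the same libraries.

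Few genes differed by 2-fold between the uninjured libraries. In total 514 of 15132 genes were past 2-fold (3.4%), of which 250 were higher in dusp6 (1.65% of genes kept) and 264 lower (1.74%). The median difference of all genes kept was -0.05, 42.9% of genes were above 0, and the central 90% of genes lay between -0.62 and 0.59. Differences past 4-fold were found for 40 genes higher and 39 genes lower in dusp6. The share past 2-fold was smaller among deeply counted genes, at 4.06% of genes with 50 to 249 counts in the higher library, 4.04% with 250 to 999 counts, 2.37% with 1000 to 9999 counts and 2.42% with 10000 or more. At the floor itself, none of the 48 genes with exactly 50 counts in the higher library was past 2-fold, because 529 genes kept stayed under 1 CPM in both libraries and cannot reach a difference of 1 with this pseudocount. With a pseudocount of 10 CPM the total was 75 genes, and with 0.1 CPM it was 1009. Of 54 genes past 2-fold that the naming rule picked, 22 were still past it with 10 CPM, and dusp6 and egr1 were not among them.

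**Figure D1:**
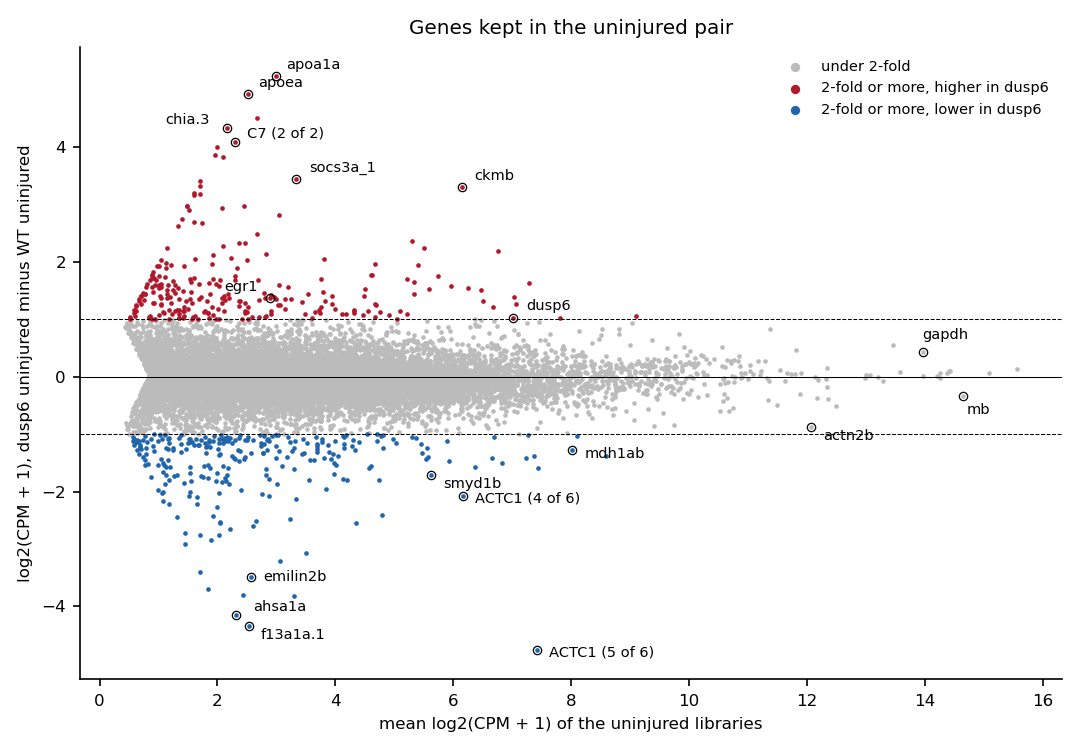
Difference between dusp6 uninjured and WT uninjured on the log2(CPM + 1) scale (vertical) against the mean log2(CPM + 1) of both libraries (horizontal), 1 point per gene kept, with the 2-fold limits dashed. The 250 genes higher in dusp6 and the 264 lower lie mostly at low levels, and ACTC1 (5 of 6) and ckmb stand out at higher ones.

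The mutated gene itself was higher in the mutant. The dusp6 transcript (ENSDARG00000070914) was at 184 CPM in dusp6 uninjured and 90.05 CPM in WT uninjured, against 113 CPM in dusp6 20 dpa and 105 CPM in WT 20 dpa. It was 2.05-fold higher in dusp6 (interval 1.98 to 2.11) in the uninjured pair, a difference of 1.02, and 1.08-fold higher in dusp6 at 20 dpa. The dusp6 uninjured library thus stood above the other 3, which lay close together. Since the labels do not say that pt30a removes the transcript, this level does not check them.

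Other genes of the phosphatase list, which holds atypical members beside MAP kinase phosphatases, differed little. Of 20 kept members of the phosphatase list, dusp6 included, 1 was past 2-fold higher (dusp6) and 1 past 2-fold lower (dusp8a). Of all genes kept, 1.65% were past 2-fold higher and 1.74% lower. The list's median was 0.05, beside -0.05 for all genes. The JNK and p38 phosphatase gene dusp8a was at 7.90 CPM in dusp6 uninjured and 17.3 CPM in WT uninjured (-1.04), a call that ended when libraries were scaled by the trimmed mean of edgeR (TMM). The atypical phosphatase gene dusp19b was higher by 0.61 uninjured and by 0.83 at 20 dpa. DUSP27, a muscle member without known catalytic activity, was at 307 CPM in dusp6 uninjured and 220.3 CPM in WT uninjured. The nuclear MAP kinase phosphatase genes were nearer to equal: dusp1 differed by 0.36, dusp2 by 0.29, dusp4 by -0.44 and dusp5 by 0.27. The cytoplasmic relative of dusp6, dusp7, was at 23.4 CPM in dusp6 uninjured and 27.5 CPM in WT uninjured (-0.22).

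Among FGF and ERK feedback and target genes, 1 of 24 kept members was past 2-fold, beside 3.4% of all genes kept. Their median difference was 0.06. That member was egr1, an immediate early transcription factor gene, at 10.9 CPM in dusp6 uninjured and 3.59 CPM in WT uninjured. It was 3.05-fold higher in dusp6 (interval 2.62 to 3.56) uninjured, but the 20 dpa pair stood the other way, at 9.93 CPM in dusp6 and 16.5 CPM in WT. The WT uninjured library was the lowest of the 4. The other immediate early members lay under the 2-fold limit on both sides of 0. Their uninjured differences were 0.86 for mycb, 0.85 for junba, 0.67 for junbb, 0.55 for ier2 and 0.51 for egr3, but -0.49 for myca, -0.14 for ier5 and -0.06 for IER2 (1 of 2). The first 5 differed by 0.14, 0.14, -0.10, -0.06 and -0.25 at 20 dpa.

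The feedback inhibitors proper lay close to equal between the uninjured libraries. The Sprouty gene spry2 was at 34.1 CPM in dusp6 uninjured and 29.2 CPM in WT uninjured, and spry4 at 13.6 CPM in dusp6 and 11.3 CPM in WT. The Spred genes spred1, spred2a and spred2b differed by -0.32, -0.21 and 0.10, and il17rd, which encodes the FGF antagonist Sef, by -0.16. Of the Etv transcription factor genes, etv4 was higher in dusp6 (13.9 CPM in dusp6 uninjured, 8.37 CPM in WT uninjured, 0.67), while etv5a and etv5b differed by 0.01 and 0.07. At 20 dpa etv4 stood the other way, at 8.65 CPM in dusp6 and 14.4 CPM in WT. The lowest members were phlda1 (-0.90) and rasl11b, a small Ras-like GTPase gene, which was lower in dusp6 in both pairs, past 2-fold at 20 dpa alone (-0.77 uninjured, -1.38 at 20 dpa). None of 39 genes of the ERK cascade itself was past 2-fold, the farthest being rps6ka3b, an ERK-activated kinase gene (0.76), and kras (-0.60). None of 38 growth factor and receptor genes of regeneration was past 2-fold either, and the VEGF receptor gene flt1 (-0.92), fgf1a (-0.82) and tgfb3 (-0.72) were lowest. A share of 3.4%, that over all genes kept, cannot be told apart from none in lists of this size.

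**Figure D2:**
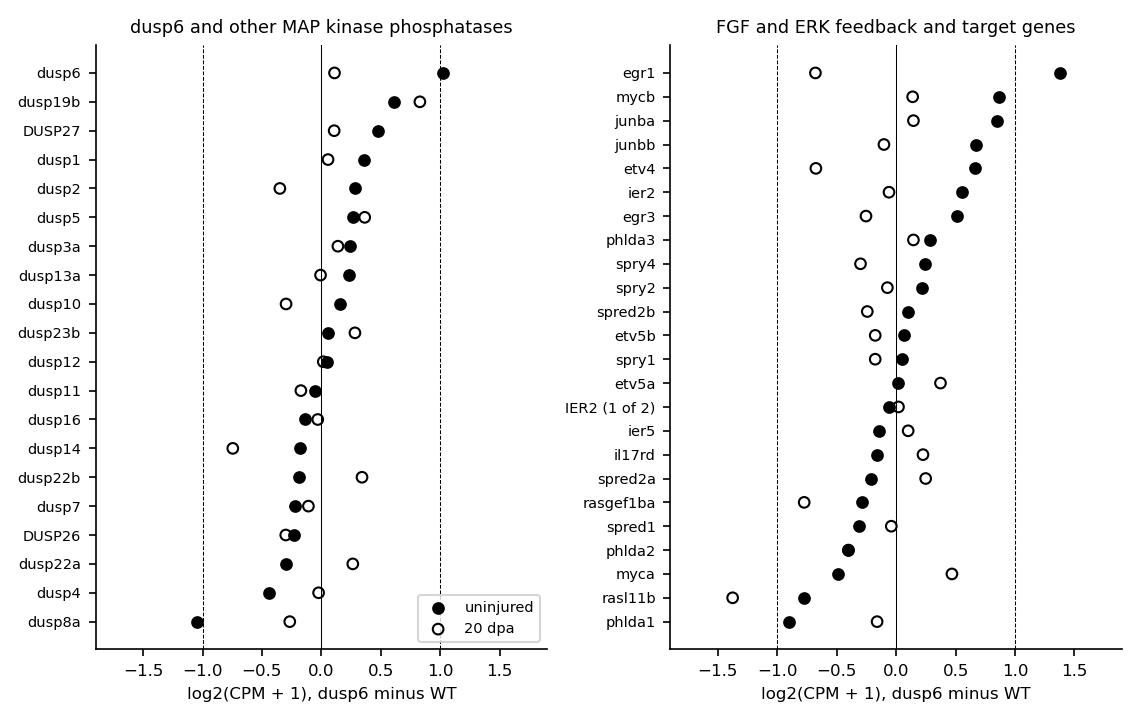
Difference, dusp6 minus WT, of every kept member of the phosphatase list (left) and of the FGF and ERK feedback and target list (right), filled for the uninjured pair and open for the 20 dpa pair, with 2-fold limits dashed. In the uninjured pair dusp6 (1.02), egr1 (1.38) and dusp8a (-1.04) are past a limit, and none of these 3 is past it at 20 dpa.

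Muscle genes held the largest difference at a high level. ACTC1 (5 of 6), a cardiac actin gene (ENSDARG00000076126, actc1c in the gene name table), was at 31.7 CPM in dusp6 uninjured and 888 CPM in WT uninjured. It was 28.0-fold lower in dusp6 (interval 26.8 to 29.3) uninjured and 35-fold lower at 20 dpa, at 43.9 CPM in dusp6 and 1538 CPM in WT. Both dusp6 libraries thus lay far below both WT libraries. ACTC1 (4 of 6), another actin gene of that name, was at 33.8 CPM in dusp6 uninjured and 146 CPM in WT uninjured (4.32-fold lower in dusp6 (interval 4.11 to 4.53)), and at 166 and 536 CPM in the dusp6 and WT libraries of 20 dpa. The main cardiac actin gene actc1a was far more abundant and equal between the genotypes. On the authors' length-scaled unit (RPKM), actc1a was at 11051 in dusp6 uninjured and 10925 in WT uninjured, where ACTC1 (5 of 6) was at 19.9 in dusp6 and 554 in WT. Actin copies are near-identical in coding sequence, and the counting of reads shared between copies is not stated, so the split between these actin genes is uncertain.

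Creatine kinase showed a like contrast between gene copies, in the other direction. The muscle creatine kinase gene ckmb was at 222 CPM in dusp6 uninjured and 21.5 CPM in WT uninjured, and at 153 and 29.7 CPM in the dusp6 and WT libraries of 20 dpa. It was 10.4-fold higher in dusp6 (interval 9.79 to 11.0) uninjured and 5.15-fold higher at 20 dpa, so that both mutant libraries stood above both WT libraries. Its copy ckma was at 4599 CPM in dusp6 uninjured and 4753 CPM in WT uninjured. The M-band gene myom3 was also higher in both mutant libraries, at 23.3 CPM in dusp6 uninjured against 6.47 CPM in WT uninjured and 54.5 CPM in dusp6 20 dpa against 4.58 CPM in WT 20 dpa. The myosin-binding protein gene mybpc2b was lower in both, by -2.005 uninjured and -1.47 at 20 dpa. ckmb and mybpc2b were the only genes past 2-fold uninjured among 16 kept members of the skeletal muscle list. Over all genes kept uninjured, 1.65% were past 2-fold higher and 1.74% lower. With 3 counts in dusp6 uninjured and 203 in WT uninjured, mybpc2b was kept through WT uninjured alone and had to stand lower in dusp6. Through dusp6 uninjured alone, 1 other member was kept. At 20 dpa 13 of 33 kept members of this list were past 2-fold lower in dusp6 and 1 higher, with a median of -0.61. Of all genes kept at 20 dpa, 2.16% were past 2-fold lower and 1.3% higher. All 33 members reached the count floor in WT 20 dpa, but 27 did so in dusp6 20 dpa. Those kept through the WT library alone had to stand lower in dusp6, so this count and median lean that way.

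The sarcomere gene list of cardiomyocytes as a whole was close between the uninjured libraries. It does not hold ACTC1 (5 of 6), ACTC1 (4 of 6) or myom3, which are given above. For the counts that follow, 1.65% of all genes kept were past 2-fold higher and 1.74% lower. Of 47 kept sarcomere genes 0 were past 2-fold higher and 1 was past 2-fold lower, with a median of -0.06 beside -0.05 for all genes, and their summed level was 127900 CPM in dusp6 uninjured and 129623 CPM in WT uninjured. The gene past the limit was smyd1b, a methyltransferase gene required for sarcomere assembly, at 26.3 CPM in dusp6 uninjured and 88.2 CPM in WT uninjured (3.36-fold lower in dusp6 (interval 3.18 to 3.55)). At 20 dpa smyd1b was at 151 CPM in dusp6 and 187 CPM in WT, so the dusp6 uninjured library was the lowest of the 4. In absolute terms the alpha-actinin gene actn2b differed most among sarcomere genes, at 3159.8 CPM in dusp6 uninjured and 5818 CPM in WT uninjured (-0.88), and at 2241 CPM in dusp6 20 dpa and 4933 CPM in WT 20 dpa (-1.14). The myosin heavy chain gene vmhc differed in opposite directions in the 2 states, at 728 CPM in dusp6 uninjured and 377 CPM in WT uninjured (0.95, past 2-fold under TMM scaling) but at 232 and 671 CPM in the dusp6 and WT libraries of 20 dpa (-1.53). The atrial myosin gene myh6 differed by -0.90 uninjured and 0.70 at 20 dpa, and the calcium-binding troponin gene tnnc1a was at 3516 CPM in dusp6 uninjured and 1979.9 CPM in WT uninjured. Among 31 kept calcium handling and ion channel genes 1 was past 2-fold lower, the sodium channel beta subunit gene scn1ba (-1.81 uninjured, -1.11 at 20 dpa), and none was higher. None of 27 natriuretic peptide and cardiomyocyte stress genes was past 2-fold, and nppa, the atrial natriuretic peptide gene, was at 1569 CPM in dusp6 uninjured and 1674 CPM in WT uninjured.

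**Figure D3:**
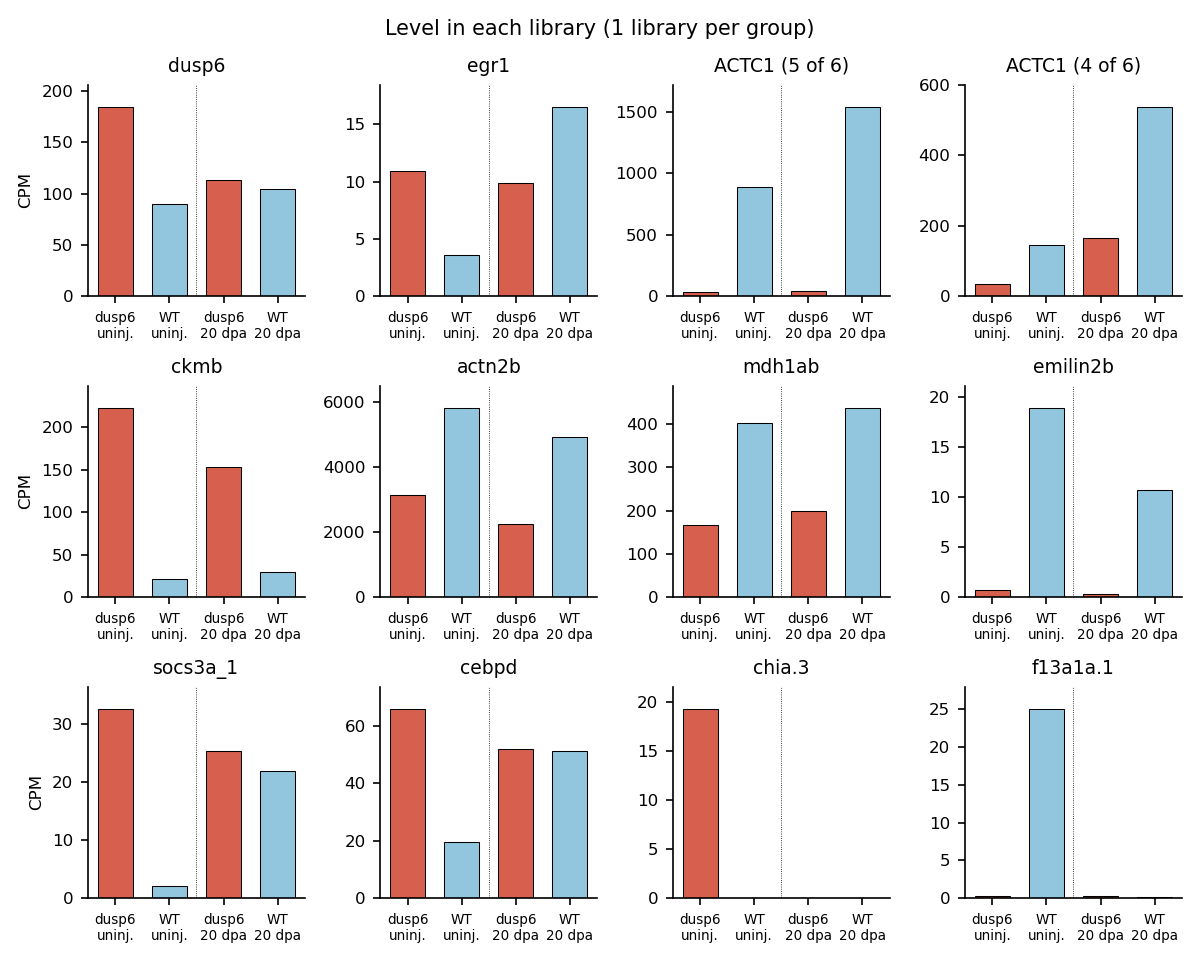
CPM of 12 genes in each library, with red bars for dusp6 and blue bars for WT, uninjured left and 20 dpa right of the dotted line, 1 library per group and so no error bars. ACTC1 (5 of 6), ACTC1 (4 of 6), actn2b, mdh1ab and emilin2b are lower and ckmb is higher in dusp6 in both states, whereas socs3a_1, cebpd, egr1, chia.3 and f13a1a.1 have 1 uninjured library apart from the other 3.

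The 10 largest upward differences were taken among named genes with 250 or more counts in the higher library. Most were of transcripts seen in the dusp6 uninjured library and nearly absent from the other 3. Of these, apoa1a and apoea are on the liver list and chia.3, tcnl and chia.1 on the gut and pancreas list. The liver markers fabp10a and fga, however, were lower in dusp6 uninjured than in WT uninjured, and tfa was slightly higher. In a bulk library, fewer cells of a type and less RNA per cell cannot be told apart. The apolipoprotein A-I gene apoa1a was at 47.8 CPM in dusp6 uninjured and 0.285 CPM in WT uninjured (168-fold higher in dusp6 (interval 106 to 284)), and at 0.305 and 1.07 CPM in the dusp6 and WT libraries of 20 dpa. The apolipoprotein E gene apoea was at 30.6 CPM in dusp6 uninjured and 0.0316 CPM, a count of 2, in WT uninjured (967-fold higher in dusp6 (interval 267 to 7991)). The acidic chitinase gene chia.3 was at 19.2 CPM in dusp6 uninjured and had 0 counts in each of the other 3 libraries. Its level was 405-fold above a floor of 3 counts in WT uninjured, and the lower limit of its counting interval was 329-fold. By the same floor the cobalamin-binding protein gene tcnl was 316-fold higher, with a lower limit of 256-fold. The apolipoprotein A-IV gene apoa4b.2 was 204-fold higher by it, with a lower limit of 165-fold. chia.1, a second chitinase gene, and the galectin gene lgals2b, with 1 and 2 counts in WT uninjured, were at 13.9 and 9.30 CPM in dusp6 uninjured.

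The gut and pancreas list, written with earlier results of these data known, includes chia.3, tcnl and chia.1 given above. Of 46 matched members of the gut and pancreas list, 14 had 50 or more counts in dusp6 uninjured and 3 in WT uninjured, so 11 of the 14 genes kept entered through the dusp6 library alone and had to stand higher there. Among the 14, 10 were past 2-fold higher and 0 lower, beside 1.65% higher and 1.74% lower of all genes kept. The fatty acid-binding gene fabp2, of enterocytes, was at 5.25 CPM in dusp6 uninjured and 0.0158 CPM in WT uninjured, and the microvillus gene vil1 at 3.32 CPM in dusp6 and 0.0949 CPM in WT. The pancreatic gene ctrb1 took most of the list's summed level and stood the other way, at 87.7 CPM in dusp6 uninjured and 152 CPM in WT uninjured. With ctrb1 the list summed to 183 CPM in dusp6 uninjured and 159 CPM in WT uninjured, and without it to 94.9 CPM in dusp6 and 7.09 CPM in WT. Beside ctrb1, the 4 pancreatic markers used to check for that tissue stayed under 1 CPM in both libraries. The trypsin gene prss1 was at 0.609 CPM in dusp6 uninjured and 0.380 CPM in WT uninjured, the elastase gene ela2l at 0.115 CPM in dusp6 and 0.158 CPM in WT, the insulin gene ins at 0.0823 CPM in dusp6 and 0.0158 CPM in WT, and the carboxypeptidase gene cpa1 at 0 in both.

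Of 60 liver genes, 19 had 50 or more counts in dusp6 uninjured and 12 in WT uninjured, so 8 of the 20 genes kept entered through the dusp6 library alone and had to stand higher there, and 1 through the WT library alone. Among the 20, 7 were past 2-fold higher and 0 lower, 16 were above 0 and the median was 0.36. Beside these, 1.65% of all genes kept were past 2-fold higher, 1.74% lower and 42.9% above 0. The list summed to 276 CPM in dusp6 uninjured and 181 CPM in WT uninjured. Of the 3 markers used to check for liver, fabp10a is given above, and the fibrinogen gene fga was at 0 CPM in dusp6 uninjured and 0.127 CPM in WT uninjured. The plasma transferrin gene tfa was at 22.5 CPM in dusp6 uninjured and 18.5 CPM in WT uninjured. In all, 26 genes were past 2-fold higher in dusp6 uninjured with 3 counts or fewer in each of the other 3 libraries, and without them 488 genes remained past 2-fold, 224 higher and 264 lower. What part other tissue in the dusp6 uninjured library has in these differences was not tested.

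Of the 10 largest downward differences some set 1 uninjured library apart from the other 3 libraries, and others recurred at 20 dpa. The coagulation factor XIII gene f13a1a.1, also made by macrophages, was at 0.280 CPM in dusp6 uninjured and 24.98 CPM in WT uninjured (89.3-fold lower in dusp6 (interval 55.6 to 154)), but at 0.269 and 0.145 CPM in the dusp6 and WT libraries of 20 dpa, so the WT uninjured library stood alone. For ahsa1a, which encodes an activator of the chaperone Hsp90, the dusp6 uninjured library stood alone, at 0.181 CPM against 20.0 CPM in WT uninjured and 37.0 and 36.8 CPM in the dusp6 and WT libraries of 20 dpa. Its copy ahsa1b was at 8.28 CPM in dusp6 uninjured and 12.5 CPM in WT uninjured. A difference was present in both states for emilin2b, a gene of elastic microfibril glycoprotein, at 0.773 CPM in dusp6 uninjured and 18.8 CPM in WT uninjured (24.4-fold lower in dusp6 (interval 18.2 to 33.3)) and at 0.341 CPM in dusp6 20 dpa and 10.7 CPM in WT 20 dpa. The intestinal alkaline phosphatase gene alpi.1 was lower in both as well (-2.75 uninjured, -2.13 at 20 dpa). Uninjured, it stood the opposite way to the gut markers fabp2 and vil1. Also lower in both was nitr1o (-2.54 and -1.88), of a large family of teleost immune receptors whose reads may be split among copies. The melanosome transport gene mlpha (-2.72), the potassium channel partner gene dpp6b (-2.60), the tyrosine breakdown gene fah (-2.53), necab2 (-2.51) and the sialyltransferase gene st6galnac5b (-2.47) were lower uninjured and differed by between 0.07 and 0.82 at 20 dpa.

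Genes with 10000 or more counts in the higher library are measured with the least counting error, and 18 of 745 were past 2-fold, 8 higher and 10 lower in dusp6. Beside dusp6, ckmb, ACTC1 (5 of 6) and mdh1ab, the following were chosen after their values were seen. The small heat shock protein gene hspb6 was at 233 CPM in dusp6 uninjured and 49.8 CPM in WT uninjured (4.67-fold higher in dusp6 (interval 4.50 to 4.86)), with 419 and 319 CPM in the dusp6 and WT libraries of 20 dpa, so WT uninjured was the lowest of the 4. The terminal complement gene c6_2 was 3.14-fold higher in dusp6 (interval 3.05 to 3.24) uninjured and level at 20 dpa (-0.01). Lower in dusp6 uninjured were LRRC2 (2.84-fold lower in dusp6 (interval 2.74 to 2.94)), the complement factor D gene cfd (2.68-fold), the annexin gene anxa2a (2.04-fold) and the amino acid transporter gene slc38a2 (2.02-fold). Of these 4 genes, LRRC2 and cfd differed by -0.06 and 0.20 at 20 dpa, and anxa2a and slc38a2 by -0.62 and -0.20. Uninjured, anxa2a and slc38a2 lay close to the 2-fold limit, and TMM scaling moved the median of all genes up by 0.06.

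The heme synthesis gene alas1, the iron uptake genes tfr1b and tfr1a and the red blood cell list were lower in dusp6 uninjured. alas1 and tfr1b were chosen after their values were seen. alas1, which encodes the first enzyme of heme synthesis, was at 238 CPM in dusp6 uninjured and 618 CPM in WT uninjured (2.59-fold lower in dusp6 (interval 2.55 to 2.64)), and at 612 and 966 CPM in the dusp6 and WT libraries of 20 dpa. The transferrin receptor genes tfr1b and tfr1a, which take up iron, were 2.61-fold and 1.77-fold lower uninjured and 1.44-fold and 1.73-fold lower at 20 dpa. Of 24 kept red blood cell genes 1 was past 2-fold lower and 0 higher, 2 were above 0 and the median was -0.34, against -0.07 at 20 dpa. Over all genes kept uninjured, 1.74% were past 2-fold lower and 42.9% were above 0. The list summed to 10607 CPM in dusp6 uninjured and 14771 CPM in WT uninjured. Its lowest members uninjured were the erythroid transcription factor genes gata1a (-1.002, a call that ended under TMM scaling) and klf1 (-0.74) with tfr1a (-0.81), and the beta globin gene ba1 was at 4843 CPM in dusp6 uninjured and 6878 CPM in WT uninjured. The part of red blood cells in the values of alas1 and the transferrin receptor genes was not tested. The heme oxygenase gene hmox1a, which breaks heme down, stood the other way (1.36), as did tfa given above. Of 12 thrombocyte genes 1 was past 2-fold lower (si:dkey-27p18.3 at -1.06, not past it under TMM scaling) and the median was -0.32, with gfi1b, a transcription factor gene of the erythroid and platelet lineages, at -0.84 uninjured and -1.35 at 20 dpa.

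A few genes of stress and cytokine responses were past 2-fold higher in dusp6 uninjured, while the median of the stress list lay near that of all genes. The feedback inhibitor gene of cytokine signalling socs3a_1 was at 32.5 CPM in dusp6 uninjured and 2.06 CPM in WT uninjured (15.8-fold higher in dusp6 (interval 13.2 to 19.0)), and at 25.3 and 21.9 CPM in the dusp6 and WT libraries of 20 dpa. Of 30 glucocorticoid and amino acid stress genes 5 were past 2-fold higher and 0 lower, beside 1.65% higher and 1.74% lower of all genes kept. Of the 30, 18 were above 0 and the median was 0.04, beside -0.05 for all genes. The 5 were the transcription factor gene cebpd (65.8 CPM in dusp6 uninjured, 19.6 CPM in WT uninjured), the mTOR inhibitor gene ddit4 (1.70), the growth arrest genes gadd45ba (1.55) and gadd45ga (1.52), and zbtb16b (1.09). For cebpd, gadd45ba and gadd45ga the WT uninjured library was the lowest of the 4, and the 20 dpa differences were 0.02, 0.26 and -0.06. zbtb16b was the one also past 2-fold higher at 20 dpa (1.45). The glucocorticoid-induced gene fkbp5 was at 11.8 CPM in dusp6 uninjured and 6.99 CPM in WT uninjured. Of 36 immediate early and heat shock genes, a list on tissue handling as well as on signalling, 1 was past 2-fold higher (egr1) and 2 lower (nr4a2a at -1.83 and serpinh1b at -1.07), with a median of -0.06. The part of tissue handling in these values was not tested.

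In the leukocyte and interferon lists most genes were under 2-fold. The share past it was larger than over all genes kept, but rested on few genes. For neutrophils it rested on 1 gene of 16 and for lymphocytes on 2 of 16. Of all genes kept, 3.4% were past 2-fold, 1.65% higher and 1.74% lower in dusp6. Of 50 macrophage and antigen presentation genes 4 were past 2-fold higher and 2 lower, and the median was 0.09 uninjured, against -0.67 at 20 dpa, with summed levels of 1547 CPM in dusp6 uninjured and 1334 CPM in WT uninjured. The higher members were the apolipoprotein genes apoeb (1.44) and apoc1l (1.29), the heme oxygenase gene hmox1a (1.36) and the progranulin gene grn1 (1.22), and the lower ones f13a1a.1 and the arginase gene arg2, at 3.97 CPM in dusp6 uninjured and 13.5 CPM in WT uninjured. Of 16 neutrophil genes 1 was past 2-fold higher, the myeloperoxidase gene mpx, at 6.98 CPM in dusp6 uninjured, 0.822 CPM in WT uninjured, 1.74 CPM in dusp6 20 dpa and 2.05 CPM in WT 20 dpa. mpx was 8.48-fold higher in dusp6 (interval 6.35 to 11.5), while the other neutrophil genes differed by 0.82 at most. Of the 16, 14 were above 0, against 42.9% of all genes, with a median of 0.05 uninjured and -0.46 at 20 dpa, and 2 were kept through the dusp6 library alone. Of 16 lymphocyte genes 2 were past 2-fold lower, the interleukin receptor gene il2rb (-1.08 uninjured, -1.34 at 20 dpa) and tox (-1.03, a call that ended under TMM scaling). Interferon response and MHC class I genes split, with 2 of 41 higher (mhc1uba at 1.39 and mxc at 1.32) and 2 lower (mxe at -1.16 and mhc1zea at -1.05). MHC class I and Mx genes are multigene families, in which the counting of shared reads may move counts between copies.

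Matrix and vessel genes also differed one by one. Of 60 extracellular matrix genes 2 were past 2-fold higher and 3 lower. Of all genes kept, 1.65% were past 2-fold higher and 1.74% lower, and the other lists of this paragraph held 1 gene or none past it. Among the higher ones the wound matrix gene tnc was at 2.62 CPM in dusp6 uninjured and 0.775 CPM in WT uninjured. The hyaluronan link protein gene hapln1a was at 13.1 CPM in dusp6 uninjured and 40.6 CPM in WT uninjured (3.10-fold lower in dusp6 (interval 2.86 to 3.36)), the proteoglycan gene bgnb at 2.35 CPM in dusp6 and 7.18 CPM in WT, and the collagen chaperone gene serpinh1b at 3.97 CPM in dusp6 and 9.46 CPM in WT. For hapln1a and serpinh1b the dusp6 uninjured library was the lowest of the 4. None of 18 epicardial genes was past 2-fold, with the epicardial transcription factor gene tbx18 at 0.88 and clu at -0.78. Of 50 endothelial and endocardial genes 1 was past 2-fold higher, lyve1a, a marker of lymphatic endothelium (1.04), and of 24 mural and smooth muscle genes 1 lower, the pericyte gene rgs5a, at 17.2 CPM in dusp6 uninjured and 42.0 CPM in WT uninjured. The elastin gene elnb was lower by less than 2-fold uninjured (-0.91) and past it at 20 dpa (-1.54).

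Genes of translation and energy metabolism shifted by small steps across whole lists. Of 77 cytosolic ribosomal protein genes 74 were above 0, with a median of 0.19 beside -0.05 and 42.9% above 0 for all genes, and 0 were past 2-fold. The largest was rpl31, at 617 CPM in dusp6 uninjured and 419.8 CPM in WT uninjured. In the 20 dpa pair, which shares no library with the uninjured one, all 77 were above 0 and the median was 0.23. Nuclear oxidative phosphorylation and TCA cycle genes lay lower uninjured, with 17 of 95 above 0 and a median of -0.12. They summed to 48796 CPM in dusp6 uninjured and 51499 CPM in WT uninjured. At 20 dpa 30 of the 95 were above 0 and the median was -0.10. This was near the median of -0.07 over all genes kept at 20 dpa, of which 39.1% were above 0. Under TMM scaling these medians moved to 0.26 for the ribosomal list and -0.05 for the oxidative phosphorylation list uninjured, beside 0.01 for all genes. One TCA cycle and shuttle gene was past 2-fold, the cytosolic malate dehydrogenase gene mdh1ab, at 166 CPM in dusp6 uninjured and 402 CPM in WT uninjured and at 199 and 436 CPM in the dusp6 and WT libraries of 20 dpa. Its copy mdh1aa was at 1363 CPM in dusp6 uninjured and 1065 CPM in WT uninjured.

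Glycolysis genes were lower at the median (-0.29, 12 of 39 above 0), and yet their summed level was higher, at 36260.5 CPM in dusp6 uninjured and 34510.2 CPM in WT uninjured. This sum was carried by gapdh, the largest gain in CPM of any gene, at 18579 CPM in dusp6 uninjured and 13701 CPM in WT uninjured, and at 21741 and 15063 CPM in the dusp6 and WT libraries of 20 dpa. The phosphofructokinase genes parted, with pfkma at 0.77 and pfkpa at -0.75. The next largest gains were the mitochondrial mt-co1 and mt-co3, the elongation factor gene eef1a1l1 (13548 CPM in dusp6 uninjured, 9266 CPM in WT uninjured) and the ventricular myosin gene vmhcl. The largest losses in CPM were the myoglobin gene mb (22810.4 CPM in dusp6 uninjured, 28608 CPM in WT uninjured), actn2b, ba1, the titin gene ttna (4594 CPM in dusp6 uninjured, 6016 CPM in WT uninjured) and si:xx-by187g17.1. The 13 mitochondrially encoded genes differed by between -0.04 and 0.14. Cell cycle and mitosis genes had 0 of 47 past 2-fold and 31 above 0, with a median of 0.14 uninjured and -0.40 at 20 dpa. Of the 47, 5 were kept through the dusp6 uninjured library alone and had to stand higher there, and 0 through WT uninjured alone. At 20 dpa 33 members held 50 or more counts in dusp6 and 47 in WT. The most distant members uninjured were at low levels, such as the kinetochore gene cenpf at 2.53 CPM in dusp6 uninjured and 1.19 CPM in WT uninjured.

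**Figure D4:**
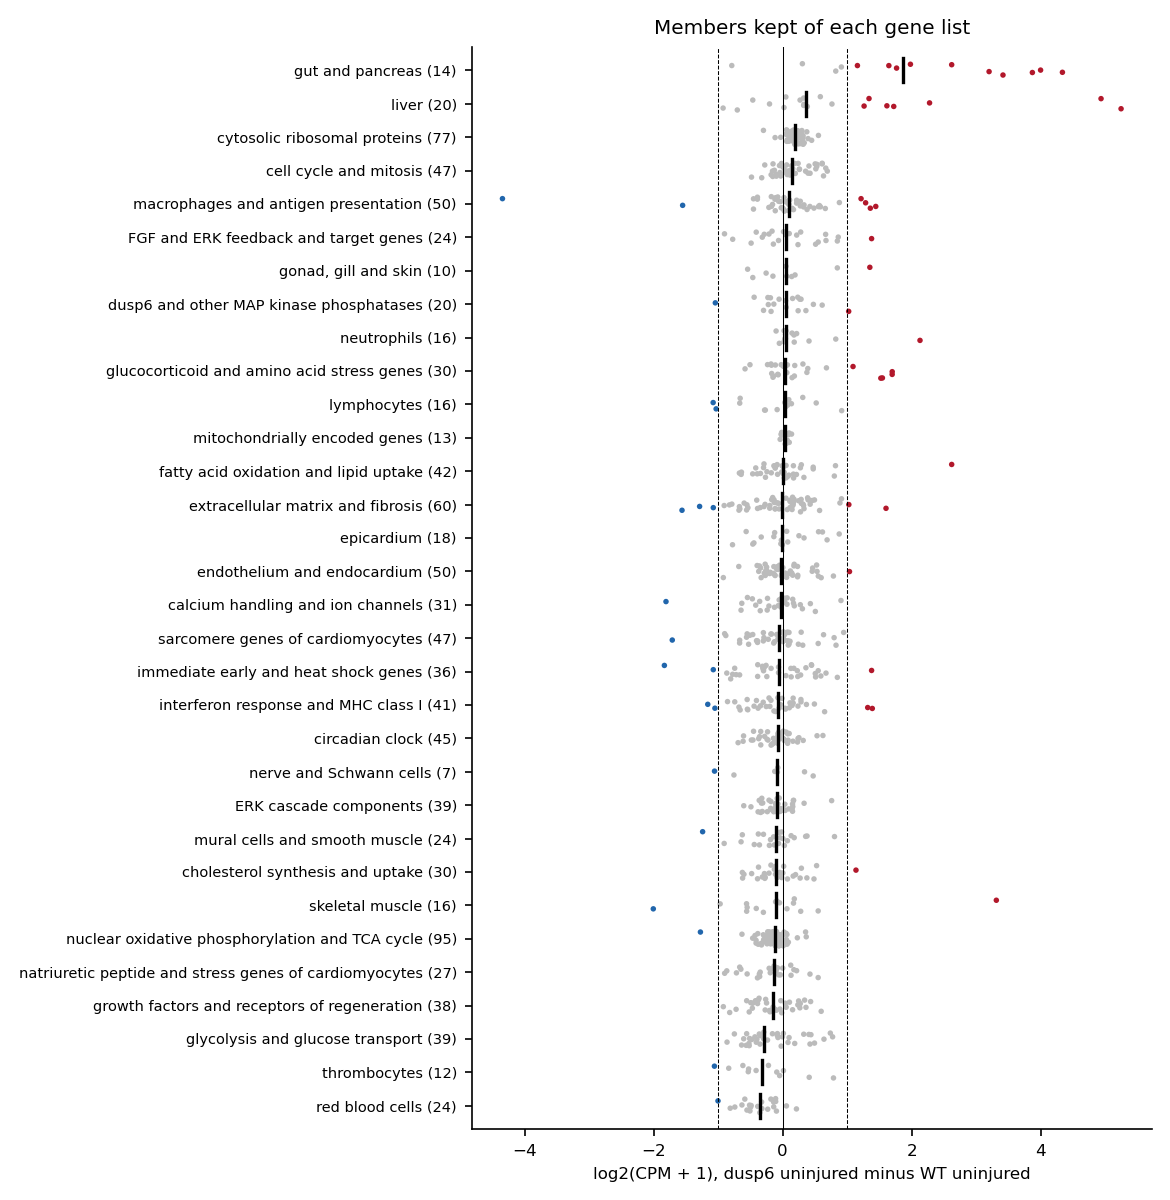
Difference, dusp6 uninjured minus WT uninjured, of each kept member (1 point each, jittered vertically) of 32 gene lists, with the list's median as a black bar, the number kept in brackets and the 2-fold limits dashed. Medians run from -0.34 for red blood cells to 1.87 for gut and pancreas, and 26 of the 32 lie within 0.15 of 0. Of the 14 gut and pancreas members, 11 were kept through dusp6 uninjured alone and had to stand higher there.

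The 20 dpa pair has no library in common with the uninjured pair, so it shows which uninjured differences recur. It held 512 of 14790 genes past 2-fold (3.46%), 192 higher in dusp6 (1.3%) and 320 lower (2.16%). Of 14301 genes kept in both pairs, 77 differed past 2-fold in like direction in each pair (0.538%), 30 higher (0.21%) and 47 lower (0.329%) in dusp6. That was 18.4% of the 418 uninjured and 18.5% of the 417 genes of 20 dpa. In opposite directions 25 genes were past 2-fold (0.175%). The genes shared the same way include ACTC1 (5 of 6), emilin2b, alpi.1, nitr1o, mdh1ab, scn1ba, mybpc2b, il2rb, ckmb, oit3 and zbtb16b, and the following were chosen after their values were seen. The terminal complement gene C7 (2 of 2) was at 19.3 CPM in dusp6 uninjured and 0.190 CPM in WT uninjured, and at 6.01 and 0.417 CPM in the dusp6 and WT libraries of 20 dpa. The secreted Wnt inhibitor gene frzb (-1.13 and -1.08), the guidance ligand gene slit1a (-1.07 and -1.12), the Rac exchange factor gene tiam1b (-1.09 and -1.29), the annexin gene anxa1a (-1.46 and -1.18) and cnih3 (-1.18 and -1.20) were lower by near-equal steps uninjured and at 20 dpa. The somatostatin receptor gene sstr5 was higher in both (1.45 and 1.29).

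**Figure D5:**
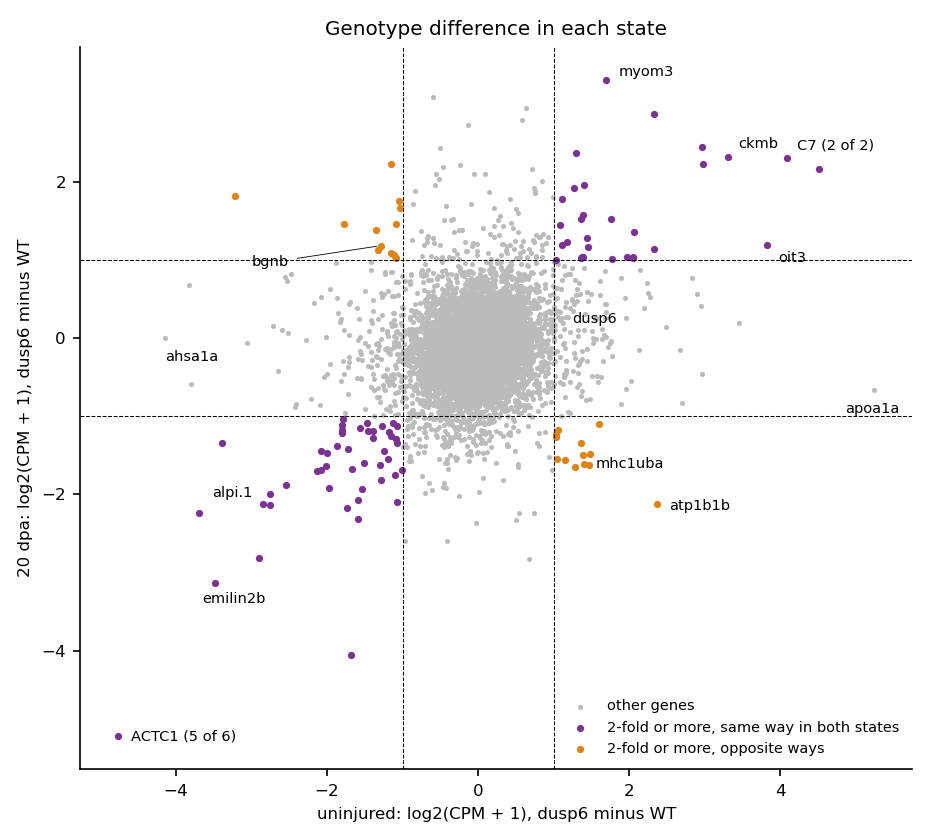
Difference, dusp6 minus WT, in the uninjured pair (horizontal) and in the 20 dpa pair (vertical) for the 14301 genes kept in both, with 2-fold limits dashed. The 77 purple genes are past 2-fold the same way in both, ACTC1 (5 of 6) farthest, and the 25 orange genes are past it in opposite ways.

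Genes at 3 counts or fewer in 1 uninjured library and 100 or more in the other were counted by a rule set after the data had been seen. Of these, 13 were nearly absent from dusp6 uninjured, and in 6 of the 13 dusp6 20 dpa also held 3 counts or fewer, against 50 or more in WT 20 dpa. Conversely 30 were nearly absent from WT uninjured, and 2 of the 30 recurred at 20 dpa by the same measure, while in 21 the dusp6 20 dpa library also held 3 counts or fewer. The genes chia.1, chia.3, tcnl, apoea, lgals2b, fabp2, fabp1b.1 and muc13b are among these 21.

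The one design with a residual, an additive edgeR quasi-likelihood fit of genotype and injury state over all 4 libraries, called 1 of 15621 genes for genotype (0.0064%) at a Benjamini-Hochberg adjusted p under 0.05. That gene was ACTC1 (5 of 6), with an edgeR adjusted p of 0.0292, lower in dusp6 in both states. emilin2b was just outside, with an edgeR adjusted p of 0.0997. At an unadjusted p under 0.05 there were 1380 genes. DESeq2 on the same design called 149 genes, 72 higher and 77 lower in dusp6, of which 97 were past 2-fold in the uninjured pair. The single residual degree of freedom measures how far the genotype differences of both states part, and not the spread between libraries of a group. With a floor of 250 counts edgeR called 0 genes, and ACTC1 (5 of 6) had an adjusted p of 0.0982, while over the edgeR alternatives run its adjusted p ranged from 0.000466 to 0.0982.

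None of the genes kept next to dusp6 on its chromosome was past 2-fold. By gene order in RefSeq (assembly GRCz12tu), 22 of the 50 genes nearest to dusp6, 25 on each side, were found in the tables and 16 were kept, beside a background of 3.4% past 2-fold. Their differences ran from -0.45 to 0.82, with a median of -0.07. Among the 50 nearest protein-coding genes, a set added after the data had been seen, 29 were kept and 1 was past 2-fold, the cytochrome P450 gene cyp2x6, at 2.88 CPM in dusp6 uninjured and 0.285 CPM in WT uninjured and at 0.0359 and 0.308 CPM in the dusp6 and WT libraries of 20 dpa. On the whole chromosome of dusp6, 15 of 405 genes kept were past 2-fold (3.70%), against 412 of 13151 (3.13%) for all genes with a place in RefSeq, rank 16 of 25 chromosomes from the lowest share. ACTC1 (5 of 6) lies on the same chromosome as dusp6, with 80 protein-coding genes between them. Inheritance with the mutated locus was not tested.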

How the data were processed

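Per the labels' protocols, ventricles were frozen and their RNA taken with Trizol and then a column. No aligner, build or annotation is named in the labels or headers. The authors deposited 2 tables of 31388 genes, in which the uninjured columns were identical and were used once. Per the file headers the tables give gene expression values, whole numbers that were taken as raw counts. The RPKM values that the authors deposited beside them were used only to set levels of different genes side by side. Genes carry the tables' own symbols, and the gene name table holds 25925 of their identifiers.

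Counts were divided by the column total (CPM) and compared as log2(CPM + 1) for genes with 50 or more counts in either library. The 32 gene lists matched 1381 of 1464 entries. The named genes were the 10 largest upward and downward differences with 250 or more counts and a proper symbol (2 and 12 others were passed over), the 5 largest gains and losses in CPM, the 3 largest members of each list, all kept phosphatases and FGF and ERK targets, genes called by the additive fit, 2 ACTC1 genes, and dusp6's neighbours past 2-fold. The comparison, its members, the lists and the naming rule were chosen with earlier results of these data known. The additive fit used edgeR 4.0.16 with TMM scaling in R 4.3.3, and DESeq2 1.42.0 as an alternative, and was tested on simulated data. Alternatives were other scalings, pseudocounts, floors and fold limits, and left-out gene sets. Python 3.11.15, pandas 2.3.3, scipy 1.17.1 and matplotlib 3.10.9 were also used. Some genes that these rules pick are not reported here.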

Additional observations from a re-analysis of the deposited data

Results flagged for a closer look

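Among the genes picked by the naming rule, 2 reported here differed past 2-fold in opposite directions in the uninjured and the 20 dpa pairs. The biglycan gene bgnb differed, dusp6 minus WT on the log2(CPM + 1) scale, by -1.29 uninjured (2.35 CPM in dusp6, 7.18 CPM in WT) and by 1.19 at 20 dpa (7.02 CPM in dusp6, 2.52 CPM in WT). The MHC class I gene mhc1uba differed by 1.39 uninjured (211 CPM in dusp6, 79.9 CPM in WT) and by -1.5 at 20 dpa (89.9 CPM in dusp6, 255 CPM in WT). With 1 library per group, none of these differences between the states was tested.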

How the results depend on the processing

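The counts past 2-fold depended on the pseudocount, the floor and the fold limit. A pseudocount of 0.1 CPM gave 1009 genes past 2-fold (504 higher, 505 lower in dusp6), 181 the same way in both states and 2 near dusp6, and 10 CPM gave 75 (37 and 38) and 10 in both states. A floor of 250 counts left 154 higher genes and 45 in both states. A fold limit of 1.5 gave 1607 genes (758 and 849), 319 in both states and 1 near dusp6, and a limit of 4 gave 79 (40 and 39) and 12. Among protein-coding neighbours of dusp6, a set added after the data had been seen, 1 gene was past 2-fold. For genotype in the additive fit, DESeq2 called 149 genes, edgeR with no floor 22, and edgeR with a floor of 250 counts 0, with 1002 genes at an unadjusted p under 0.05. TMM scaling gave 277 higher and 231 lower genes and DESeq2 size factors 275 and 234, and they moved the median of all genes by 0.06 and 0.05. Of 54 named genes past 2-fold, 49 were still past it with TMM scaling, 50 with DESeq2 size factors and 53 with totals without mitochondrially encoded genes. With both scalings 4 list medians near 0 turned positive (calcium handling, endothelium, epicardium, extracellular matrix), and no named gene past 2-fold changed sign. Of genes nearly absent from 1 uninjured library, a minimum of 250 counts in the other left 3 lower and 13 higher, and 1 count or fewer as the limit 7 and 23. No paired analysis was possible because each group holds 1 library, so that replicate numbers pair nothing, while the additive fit already compares the genotypes within each state. A count of 0 allows up to 3 counts, or 0.0475 CPM in the deepest library. With 1 library per group, differences between genotypes and between single fish or samples cannot be told apart.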

Other observations

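Opposite differences in both states were also seen for genes outside the naming rule, chosen here after their values were seen. The sodium pump beta subunit gene atp1b1b was at 88.2 CPM in dusp6 uninjured and 16.2 CPM in WT uninjured, and at 17.5 CPM in dusp6 20 dpa and 79.1 CPM in WT 20 dpa. Its difference was 2.37 uninjured and -2.12 at 20 dpa, the largest uninjured one among the 13 genes past 2-fold higher uninjured and lower at 20 dpa. Its copy atp1b1a was at 725 CPM in dusp6 uninjured and 833 CPM in WT uninjured. The other 12 genes of opposite direction were lower uninjured and higher at 20 dpa, among them the tubulin gene tuba1c (-1.05 and 1.76) and the teneurin gene tenm4 (-1.16 and 1.09). The difference between the states was not tested for any of these genes.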
